A study of Arabidopsis thaliana with 6 samples.

Results

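The double B-box genes BBX18 to BBX25 of Arabidopsis thaliana were examined in 3 gi-2 and 3 Col-0 libraries. They were taken by gene identifier from the deposited count table, which holds 32833 genes, and all 8 were found there. Col-0 is the wild-type accession, and gi-2 carries a mutation in GIGANTEA (GI), a gene of the circadian clock and of photoperiodic flowering. No transgene or other allele is given for either genotype. Seedlings of both genotypes were 7 d old and came from 0.5x MS plates at 22 °C, under short days with 8 h of light and 16 h of dark at 80 µmol m-2 s-1. Each library was made from whole seedlings, pooled in batches of 40 to 60 and snap-frozen when the light period began (ZT0). A single time point was sampled, so a change in level and a shift in daily timing cannot be told apart. The replicates are called biological, but whether they were grown separately is not said, and the p-values therefore describe the variation among these pools, which may be technical.

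B-box proteins carry zinc-binding domains that mediate contacts with other proteins, and BBX18 to BBX25 form the subfamily with a pair of B-boxes and no CCT domain. In seedlings, BBX20, BBX21, BBX22 and BBX23 promote photomorphogenesis together with the bZIP factor HY5, whereas BBX18, BBX19, BBX24 and BBX25 hold it back. The ubiquitin ligase formed by COP1 and SPA proteins removes HY5 and several of these B-box proteins in darkness. BBX18 also binds the clock protein ELF3, and BBX19 binds the flowering regulator CO.

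Of the 8 genes, 7 passed the low-count filter, and 6 of those differed between the genotypes (edgeR quasi-likelihood test, Benjamini-Hochberg adjusted p under 0.05 over 19699 genes). BBX18, BBX19, BBX24 and BBX25 were lower in gi-2, BBX20 and BBX21 were higher, BBX22 did not pass, and BBX23 had no counts. Across all genes tested, 32.6% were called, 16.3% as higher and 16.2% as lower. For each of the 6 called genes, every gi-2 library lay on one side of every Col-0 library, a pattern found in 45.3% of all genes tested. The median log2 fold change of the 7 genes was -0.47, and that of all genes tested was 0.0018. Their median absolute log2 fold change was 0.79, beside 0.29 over all genes tested. In whole seedlings, less RNA per cell and fewer cells of the expressing type cannot be told apart.

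**Figure D1:**
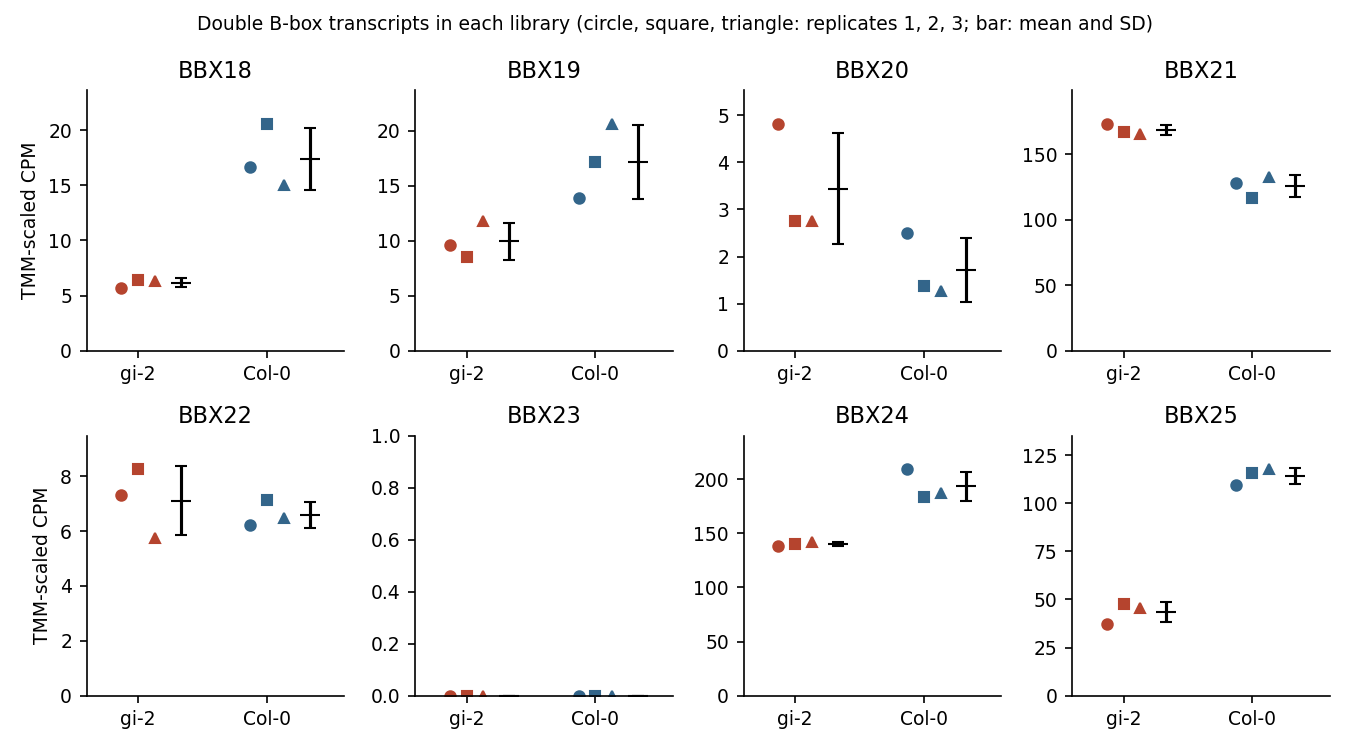
Level of each double B-box gene in every library, as CPM, the count relative to library size after TMM scaling (vertical axes, starting at 0 and scaled per panel), with gi-2 in red on the left and Col-0 in blue on the right. Points are libraries and bars give mean and SD over 3 replicates; the genotypes separate for all genes but BBX22 and BBX23.

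Libraries held 18739317 to 23617717 counts in genes, and replicates of a genotype differed by more than sampling noise, with chi-square 4.93 to 15.5 times its degrees of freedom. GI transcript, counted over the whole gene, was present at 8.02 ± 0.95 CPM (SD, n = 3) for gi-2 against 3.11 ± 0.576 CPM (SD, n = 3) for Col-0, so transcript level is no check of the genotype labels. Whole-seedling composition was read from marker lists. The summed level of 4 green tissue markers was 16227 to 19537 CPM across gi-2 libraries against 24037 to 26080 CPM across Col-0 libraries, with 3 of 4 called lower. That of 4 root markers was 2237 to 2394 CPM across gi-2 libraries against 3474 to 3902 CPM across Col-0 libraries, with 2 called lower and 1 higher. Nearly all of that sum was PYK10, at 2249 ± 73.5 CPM (SD, n = 3) for gi-2 against 3705 ± 240 CPM (SD, n = 3) for Col-0. CASP1 was the root marker called higher, by 0.56 on the log2 scale, so the sum does not stand for the list. The 4 seed storage markers summed to 18.1 to 348 CPM across gi-2 libraries against 0.720 to 9.85 CPM across Col-0 libraries. Within Col-0, SESA1 had no counts in any library and CRU3 had none in replicates 1 and 2. Of the seed storage markers, 3 were tested and all 3 were called higher in gi-2. The highest seed storage sum was in gi-2 replicate 2, and on the second principal component Col-0 replicate 1 lay at 32.6, while the other Col-0 libraries lay at -15.6 and -22.6. Without both libraries, 6 double B-box genes were called as before. What these markers contributed to the results below was not tested.

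BBX18 (AT2G21320, chromosome 2, 9126263 to 9127987, plus strand), which holds back photomorphogenesis, was well below its Col-0 level in gi-2. Its fall and that of BBX25 were the largest among the 7 double B-box genes tested, with overlapping 95% intervals, and without Col-0 replicate 2 that of BBX25 was the larger (log2 change -1.40 for BBX25 and -1.37 for BBX18). It was counted 125, 154 and 127 times in gi-2 replicates 1 to 3 and 300, 418 and 297 times in Col-0 replicates 1 to 3. Every gi-2 library lay far below every Col-0 library, and the spread was narrower in gi-2. The level was 6.16 ± 0.425 CPM (SD, n = 3) for gi-2 against 17.4 ± 2.83 CPM (SD, n = 3) for Col-0, a log2 change of -1.50 (SE 0.15, adjusted p = 4.91e-06 in edgeR). Expressed as a ratio, gi-2 retained 0.354 of the Col-0 level, with a 95% interval of 0.281 to 0.446. Of all genes tested, 97.5% had a smaller absolute fold change.

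BBX19 (AT4G38960, chromosome 4, 18160903 to 18163341, plus strand), its closest relative in the set and likewise a brake on photomorphogenesis, fell less. Its counts were 211, 203 and 236 in gi-2 replicates 1 to 3 and 250, 349 and 407 in Col-0 replicates 1 to 3. All gi-2 libraries were below all Col-0 libraries, although the highest gi-2 library, at 11.8 CPM, came near the lowest Col-0 library, at 13.8 CPM. Means were 9.96 ± 1.69 CPM (SD, n = 3) for gi-2 against 17.2 ± 3.36 CPM (SD, n = 3) for Col-0, with a log2 change of -0.79 (SE 0.17, adjusted p = 0.00211 in edgeR). RefSeq lists 6 transcripts of BBX19, and the table holds 1 count per gene, so isoforms were not separated.

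Among the genes that act with HY5, BBX21 (AT1G75540, chromosome 1, 28365824 to 28367738, plus strand) was the most abundant. BBX21 protein is known to bind the HY5 promoter and to raise HY5 transcription. It had 3813, 3997 and 3311 counts in gi-2 replicates 1 to 3 and 2308, 2378 and 2631 counts in Col-0 replicates 1 to 3. Both genotypes were tight, and the lowest gi-2 library, at 166 CPM, exceeded the highest Col-0 library, at 133 CPM. BBX21 averaged 169 ± 3.81 CPM (SD, n = 3) for gi-2 against 126 ± 8.30 CPM (SD, n = 3) for Col-0, a rise of 0.42 on the log2 scale (SE 0.07, adjusted p = 0.000531 in edgeR). This is 1.34-fold, and the 95% interval of the log2 change ran from 0.26 to 0.58.

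BBX20 (AT4G39070, chromosome 4, 18204631 to 18206684, minus strand), also called BZS1 and known as a target of the brassinosteroid factor BZR1, was the scarcest gene with counts. The gi-2 libraries had 106, 66 and 55 counts and the Col-0 libraries 45, 28 and 25, in replicates 1 to 3. Replicate 1 was the highest library in each genotype, and the lowest gi-2 library, at 2.75 CPM, was close to the highest Col-0 library, at 2.49 CPM. Levels were 3.44 ± 1.18 CPM (SD, n = 3) for gi-2 against 1.71 ± 0.68 CPM (SD, n = 3) for Col-0, a log2 change of 1.01 (SE 0.35, adjusted p = 0.0387 in edgeR). It no longer passed when gi-2 replicate 1 was left out (log2 change 0.69, adjusted p = 0.231 in edgeR), nor when Col-0 replicate 2 (0.87, 0.132) or Col-0 replicate 3 (0.84, 0.119) was. Its adjusted p ran from 0.00245 to 0.231 over all alternatives.

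BBX22 (AT1G78600, LZF1, chromosome 1, 29566863 to 29568931, plus strand), another positive factor of light-driven development, was counted 161, 197 and 115 times in gi-2 replicates 1 to 3 and 112, 145 and 128 times in Col-0 replicates 1 to 3. The gi-2 libraries spanned the Col-0 range, at 5.75 to 8.25 CPM across gi-2 libraries against 6.20 to 7.12 CPM across Col-0 libraries. The log2 fold change was 0.11 (SE 0.19, adjusted p = 0.701 in edgeR), and its 95% interval ran from -0.29 to 0.51. Changes of either sign within that interval remain possible.

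BBX23 (AT4G10240, chromosome 4, 6368829 to 6369950, minus strand), counted with BBX20, BBX21 and BBX22 among the promoters of photomorphogenesis, had 0 counts in all 6 libraries. A count of 0 allows a level of up to 3 counts, which is 0.126 to 0.166 CPM by library and covers counting error only. No count in any library was found for 8687 genes, among them, in the lists below, the B-box genes COL1, COL11, COL12 and BBX26, the flavonoid gene F3H and the flowering gene FT. Since the counting settings are not given, a count of 0 is not read as absence of the transcript. No overlap of a positioned gene with BBX23 was found, and the nearest positioned genes on either side in the table, AT4G10230 and HSP22.0, also had 0 counts. No fold change was computed for it.

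BBX24 (AT1G06040, STO, chromosome 1, 1828340 to 1829983, minus strand) interferes with HY5 and was the most abundant of the family in Col-0. Its counts were 3040, 3355 and 2829 in gi-2 replicates 1 to 3 and 3773, 3747 and 3696 in Col-0 replicates 1 to 3. The gi-2 libraries agreed closely, at 138 to 142 CPM, and all lay below the Col-0 libraries, at 184 to 209 CPM. BBX24 stood at 140 ± 1.89 CPM (SD, n = 3) for gi-2 against 193 ± 13.7 CPM (SD, n = 3) for Col-0, a log2 change of -0.47 (SE 0.07, adjusted p = 0.000246 in edgeR). The antisense gene AT1G06045 lies wholly inside BBX24 and covers 344 exonic bases of it, 23.3% of its length, with 0 counts in all libraries. How reads in that stretch were assigned is not given, so the level of BBX24 is uncertain to that extent.

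BBX25 (AT2G31380, STH, chromosome 2, 13381767 to 13383470, plus strand), the closest relative of BBX24 and a repressor of the same kind, fell further. It had 825, 1136 and 907 counts in gi-2 replicates 1 to 3 and 1979, 2359 and 2327 counts in Col-0 replicates 1 to 3. The highest gi-2 library, at 47.6 CPM, was far below the lowest Col-0 library, at 110 CPM. Means were 43.5 ± 5.34 CPM (SD, n = 3) for gi-2 against 114 ± 4.18 CPM (SD, n = 3) for Col-0, a log2 change of -1.40 (SE 0.09, adjusted p = 6.44e-08 in edgeR). The gi-2 level was 0.380 of that in Col-0, with a 95% interval of 0.332 to 0.436. The opposite-strand gene AT2G31390 overlaps the last 48 bases of BBX25, 3.79% of its length, and had a log2 fold change of -0.14 (edgeR adjusted p = 0.281).

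**Figure D2:**
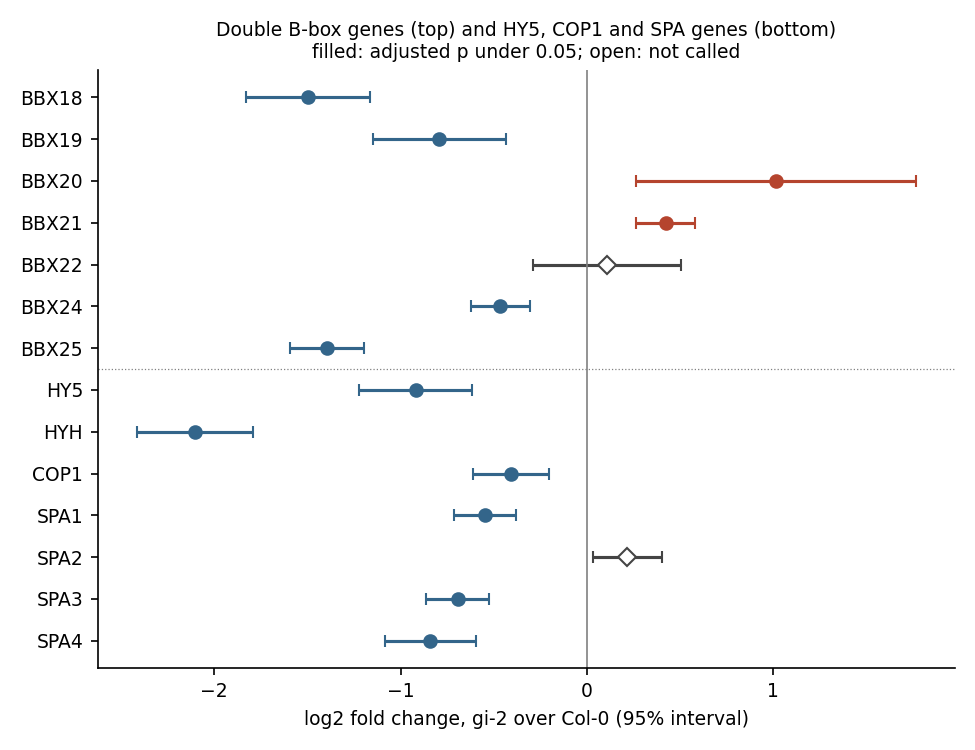
Log2 fold change of gi-2 over Col-0 (horizontal axis) with its 95% interval for the 7 tested double B-box genes above the dotted line and for HY5, HYH, COP1 and the SPA genes below it. Blue is lower and red higher in gi-2; open diamonds, BBX22 and SPA2, were not called.

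Sequence shared by members was compared on the RefSeq transcript of each gene with the longest coding sequence. The longest exact run shared by any pair was 32 bases, between BBX24 and BBX25, whose coding sequences were 78.2% identical over aligned bases. It lies in the coding part of both, at chr1:1829189-1829220 in BBX24 (minus strand) and chr2:13382765-13382796 in BBX25 (plus strand), in TAIR10.1. It is shown, all in lower case, as the longest exact match, and sharing of reads with mismatches was not measured:
BBX24 and BBX25: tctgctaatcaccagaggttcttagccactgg
BBX18 and BBX19 shared at most 20 bases in a row, at 83.2% coding identity. No other pair shared a run longer than 17 bases.

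Differences within related pairs were read as the ratio of counts inside each library, which does not depend on scaling. BBX24 was counted 3.69, 2.95 and 3.12 times as often as BBX25 in gi-2 replicates 1 to 3, and 1.91, 1.59 and 1.59 times as often in Col-0 replicates 1 to 3. The ranges did not overlap, and the log2 ratio was higher by 0.94 in gi-2 (1.69 ± 0.166 in gi-2 and 0.76 ± 0.152 in Col-0; SD, n = 3 each). The two-sided exact permutation p was 0.1, the smallest that 3 libraries against 3 allow, and 0.3 after adjustment over the 3 pairs tested. The log2 ratio of BBX18 to BBX19 was -0.68 ± 0.255 in gi-2 and 0.02 ± 0.413 in Col-0, and the ranges overlapped because Col-0 replicate 3, at -0.45, lay among the gi-2 libraries (exact permutation p = 0.2, adjusted p = 0.3). For BBX20 to BBX21 the log2 ratio was -5.66 ± 0.428 in gi-2 and -6.25 ± 0.526 in Col-0, again with overlap (exact permutation p = 0.3, adjusted p = 0.3). BBX22 to BBX23 gave no ratio, since BBX23 had no counts. Adjusted p-values under 0.05 could not be reached in this test.

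**Figure D3:**
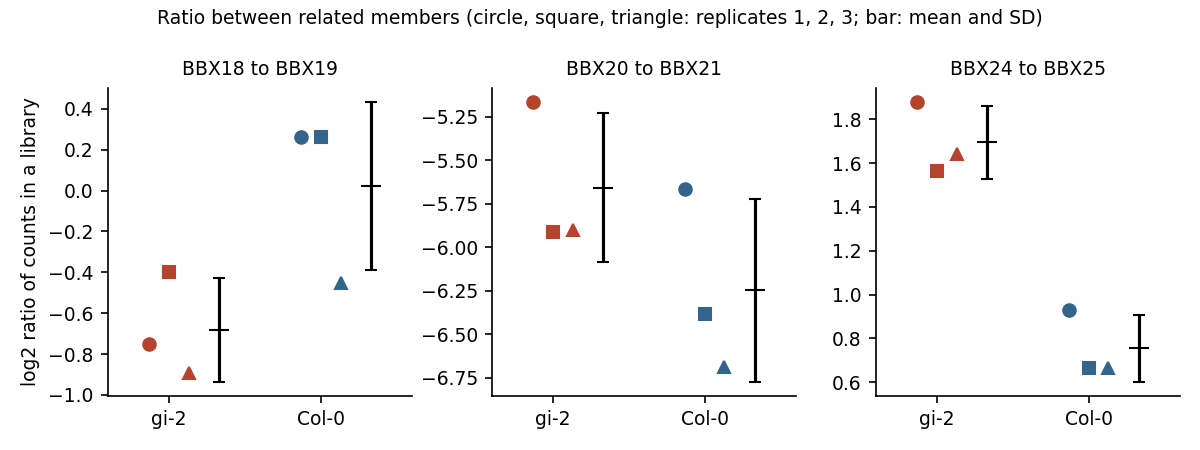
Log2 ratio of counts between related genes within each library (vertical axes, 1 panel per pair), gi-2 in red on the left and Col-0 in blue on the right, with mean and SD. The BBX24 to BBX25 ratio separates the genotypes, while the other pairs overlap.

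Levels were compared between genes as CPM per kilobase of the deposited gene length. In gi-2 the order was BBX21 at 107 ± 2.42, BBX24 at 94.9 ± 1.28 and BBX25 at 34.3 ± 4.21 CPM per kilobase, followed by BBX18, BBX19, BBX22 and BBX20 at 5.63 to 2.42. In Col-0 it was BBX24 at 131 ± 9.30, BBX25 at 90.2 ± 3.30 and BBX21 at 80.1 ± 5.28 CPM per kilobase, then BBX18 at 15.9 and BBX19, BBX22 and BBX20 at 9.51, 3.80 and 1.203 (SD, n = 3 each). BBX21 thus ranked first in gi-2 and below BBX24 and BBX25 in Col-0. Neighbours in the Col-0 order did not overlap in any case, whereas in gi-2 BBX18 and BBX19, BBX19 and BBX22, and BBX22 and BBX20 overlapped. The rank of BBX24 is uncertain because of the antisense gene inside it, and so is the first rank of BBX21 in gi-2.

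Summed over the family, the level per kilobase was 254 ± 2.75 in gi-2 and 332 ± 7.25 in Col-0 (SD, n = 3 each), with gi-2 libraries at 251 to 257 and Col-0 libraries at 324 to 338. BBX21 made up 42.2% of the sum in gi-2 and 24.1% in Col-0. BBX25 made up 13.5% in gi-2 and 27.2% in Col-0, and BBX18 2.21% in gi-2 and 4.81% in Col-0. The share of BBX24 was 37.3% in gi-2 and 39.5% in Col-0. Its ranges lay close but did not overlap, at 37.12 to 37.66% across gi-2 libraries and 37.94 to 41.96% across Col-0 libraries. The sums and all shares use the full length of BBX24, 23.3% of which lies under the antisense gene AT1G06045. How reads in that stretch were assigned is not given, so the sums and shares are uncertain to that extent.

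**Figure D4:**
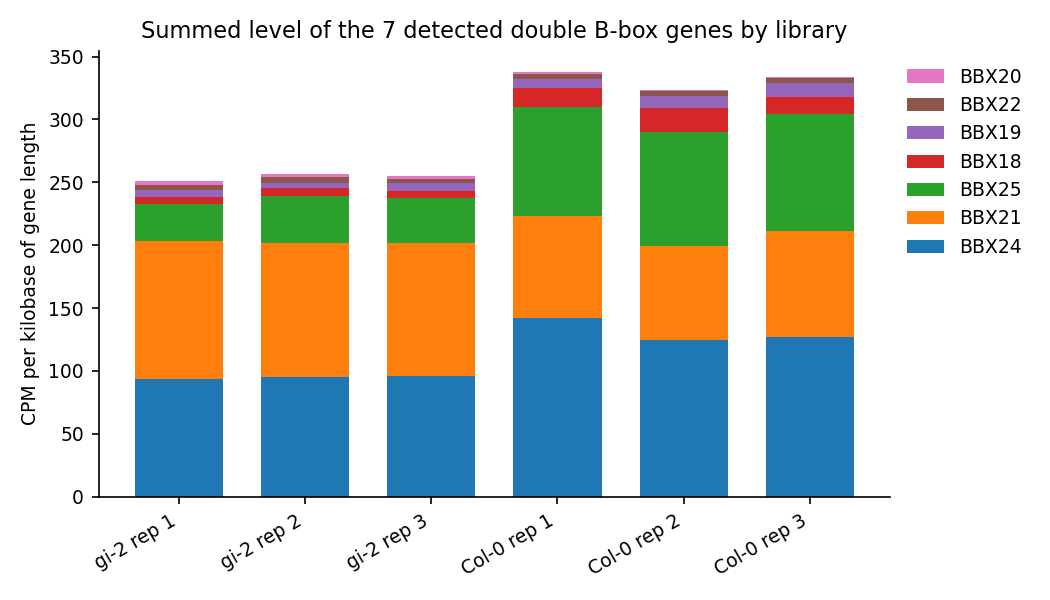
Summed level of the detected double B-box genes in each library, as CPM per kilobase of gene length (vertical axis from 0), split by gene, with the 3 gi-2 libraries left of the 3 Col-0 libraries. The gi-2 bars reach 251 to 257 and the Col-0 bars 324 to 338, and the BBX25 segment is the one that shrinks most in gi-2.

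The 300 bases before the annotated start of 7 of the genes, all but BBX22, were searched on both strands for the G-box CACGTG, a site of HY5 and PIF factors, the evening element AAAATATCT and the CCA1-binding site AAAAATCT, sites of the dawn factors CCA1 and LHY. Among 19588 such windows of tested genes, 8.12% held the G-box, 2.84% the evening element and 7.96% the CCA1-binding site. Of the 7 windows, that of BBX24 held 1 evening element on the strand of the gene, its last base 44 bases before the first base of the gene. The match did not overlap another motif, and none of the 7 windows held a G-box or a CCA1-binding site. Windows are shown for BBX24, with the match in capitals, and for BBX18, BBX25 and BBX21, the largest falls and the best supported rise, from TAIR10.1 and 5′ to 3′ on the strand of the gene. BBX24 is at chr1:1829984-1830283 (minus), BBX18 at chr2:9125963-9126262 (plus), BBX25 at chr2:13381467-13381766 (plus) and BBX21 at chr1:28365524-28365823 (plus):
BBX24: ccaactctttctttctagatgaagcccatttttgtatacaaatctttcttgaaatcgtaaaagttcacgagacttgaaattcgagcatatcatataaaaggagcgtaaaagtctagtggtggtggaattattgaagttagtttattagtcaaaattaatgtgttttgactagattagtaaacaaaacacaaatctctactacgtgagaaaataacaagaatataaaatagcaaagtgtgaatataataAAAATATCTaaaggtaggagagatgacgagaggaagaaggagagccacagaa
BBX18: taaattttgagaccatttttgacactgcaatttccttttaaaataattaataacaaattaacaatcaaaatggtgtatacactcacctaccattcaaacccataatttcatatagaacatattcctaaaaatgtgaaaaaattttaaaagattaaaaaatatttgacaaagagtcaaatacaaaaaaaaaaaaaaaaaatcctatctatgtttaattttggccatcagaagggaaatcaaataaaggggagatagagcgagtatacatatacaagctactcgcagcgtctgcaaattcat
BBX25: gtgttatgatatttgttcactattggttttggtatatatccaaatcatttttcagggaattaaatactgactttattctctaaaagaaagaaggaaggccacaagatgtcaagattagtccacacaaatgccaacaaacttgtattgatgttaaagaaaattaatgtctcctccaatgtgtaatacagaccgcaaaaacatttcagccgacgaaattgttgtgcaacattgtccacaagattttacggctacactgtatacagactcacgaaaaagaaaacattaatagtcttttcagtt
BBX21: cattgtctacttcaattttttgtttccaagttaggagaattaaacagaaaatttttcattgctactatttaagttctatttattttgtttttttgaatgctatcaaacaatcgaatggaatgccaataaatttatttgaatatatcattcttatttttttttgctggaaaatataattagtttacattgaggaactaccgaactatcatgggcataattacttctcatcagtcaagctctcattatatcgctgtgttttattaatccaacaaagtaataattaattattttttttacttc
A match is a string of letters and was not tested as a binding site. BBX18 and BBX25, with the largest falls, had none of these strings in this window.

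The partners of the family in light signalling were lower or not called. Of 10 genes of HY5 and the COP1-SPA ligase, all were tested, 6 were lower in gi-2 and 4 were not called, with a median log2 fold change of -0.48. Beside this and the lists that follow, 16.3% of all genes tested were called higher and 16.2% lower. HY5 had 195, 175 and 154 counts in gi-2 replicates 1 to 3 and 290, 305 and 280 counts in Col-0 replicates 1 to 3. This was a log2 change of -0.92 (SE 0.14, adjusted p = 0.000168 in edgeR), opposite in sign to that of BBX21. HYH, a HY5 relative, fell by 2.10 (SE 0.15, adjusted p = 1.10e-07 in edgeR), and COP1 fell by 0.41 (SE 0.10, adjusted p = 0.00462 in edgeR). SPA3 and SPA4 fell by 0.69 and 0.84 and SPA1 by 0.55, while SPA2 stood at 0.22 (edgeR adjusted p = 0.0686).

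Genes that the family acts on or with were mixed. Of 11 flavonoid genes downstream of HY5, 6 were tested and 1 was lower, near the 16.2% lower over all genes tested. This was CHS, of the first step of flavonoid synthesis, with 42, 85 and 52 counts in gi-2 and 452, 377 and 387 counts in Col-0, in replicates 1 to 3. The list median was -0.51. Of 6 clock and flowering partners of BBX18 and BBX19, 5 were tested and 3 were higher. These were PRR5, PRR7 and ELF3, at 3.28, 1.94 and 1.09 on the log2 scale; CO was not called and FT was not tested. Of 10 PIF genes and shade growth targets, 7 were higher and 1 was lower. PIF4, a growth-promoting bHLH gene, rose by 1.04, YUC8, of auxin synthesis, by 1.39 and the auxin-induced IAA19 by 1.11.

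In the rest of the B-box family, 20 of 24 genes were tested, of which 8 were higher and 5 lower in gi-2. In group I, COL2 fell by 1.90 while COL5 and COL4 rose by 0.57 and 0.21. In group II, 4 of 5 tested genes were higher and none lower, led by COL15 at 1.51 and COL10 at 1.27. In group III, COL8 rose by 2.03 while COL7 and COL6 fell by 1.22 and 0.38. In group V, BBX32 and BBX31 stood at -3.83 (SE 0.64) and -2.33 (SE 0.51), both from low counts in gi-2 (0.184 and 0.332 CPM), and BBX27 rose by 0.35. Medians were 0.21, 0.45, -0.21 and -0.97 in groups I, II, III and V, beside -0.47 for BBX18 to BBX25. Whether the groups differ from each other was not tested.

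The genes whose log2 CPM followed each member most closely over the 6 libraries were listed as a description. The 6 points share their genotype within each group of 3, and no p is given. For BBX25 they were NPF6.4 (r = 0.9998) and DIT2-1 (r = 0.999), and 1190 of 17122 genes exceeded 0.95. For BBX24 they were PTAC13 and UPM1 and for BBX21 LYK3, all at r = 0.999, with AT2G28120 at 0.9996 for BBX21. TRZ2 and AT1G06900 were nearest to BBX18, GLY1 and AT5G22820 to BBX19, and KNAT5 to BBX20, each at r = 0.997. CCX1 was next for BBX20 at r = 0.995. BBX22 had 5 genes above 0.95, led by GAE5 at r = 0.982 and MBD4L at r = 0.981.

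Leaving out 1 library at a time kept the direction of BBX18, BBX19, BBX20, BBX21, BBX24 and BBX25, and of these only BBX20 lost its call. The log2 fold change ranged from -1.59 to -1.37 for BBX18, from -0.94 to -0.64 for BBX19 and from -1.47 to -1.30 for BBX25. It ranged from 0.36 to 0.46 for BBX21 and from -0.51 to -0.41 for BBX24.

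**Figure D5:**
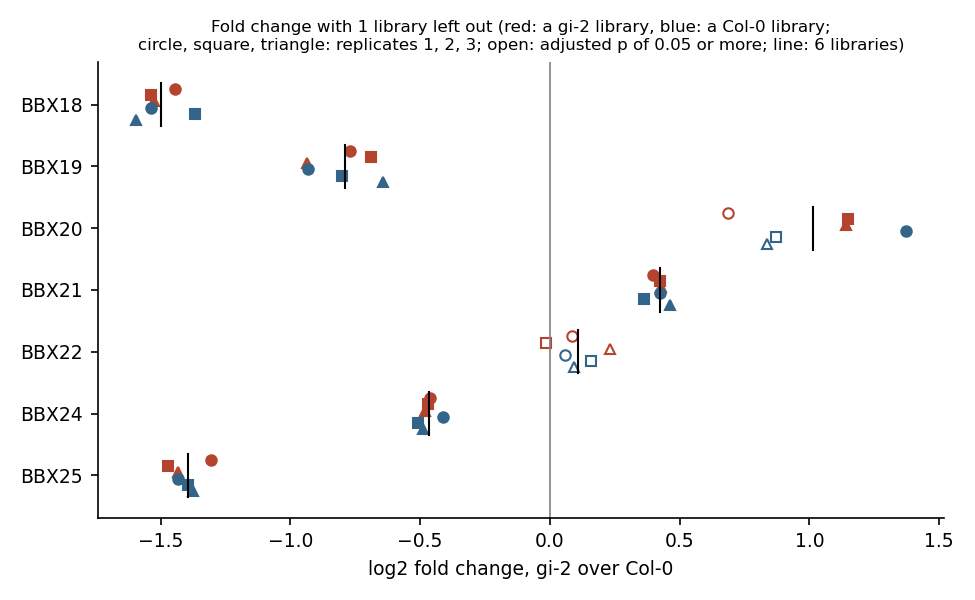
Log2 fold change of gi-2 over Col-0 (horizontal axis) for each tested gene with 1 library left out at a time; red symbols leave out a gi-2 library and blue symbols a Col-0 library, and black lines mark the value from 6 libraries. Open symbols are not called: all of BBX22, and BBX20 without gi-2 replicate 1, Col-0 replicate 2 or Col-0 replicate 3.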

How the data were processed

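Per the labels' protocols, seedling RNA went into non-directional libraries (insert 250 to 300 bp). The deposited table holds unnormalized read counts. The submitters' processing notes name the TAIR10 build, DESeq2, HTSeq 0.6.1 and STAR 2.5.5. How HTSeq treated strand and multi-mapping reads is not given here, and without strand, reads of overlapping genes cannot be told apart. Annotation fields were displaced in 24 rows, and 0 rows named no gene. Counts of the 24 were kept, but their position and length were set to missing, so these genes were not searched for overlaps. Gene lengths in bp are those deposited.

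Counts were fitted with edgeR 4.0.16 under R 4.3.3, after filterByExpr (minimum count of 10 and total of 15) and then TMM scaling. The quasi-likelihood F test had genotype as the only term. Benjamini-Hochberg adjustment ran over 19699 genes, with a threshold of 0.05. The script was tested on simulated data. CPM are TMM-scaled. Standard errors and 95% intervals are those implied by the F statistic. Pair ratios used counts plus 0.5. Likeness is Pearson's r of log2(CPM + 0.5) over genes whose average log2 CPM reached 1. DESeq2 1.42.0, limma-voom (limma 3.58.1), other scalings and filters, left-out libraries and a replicate block were alternatives. RefSeq TAIR10.1 had the deposited start and end for 32508 of 32524 nuclear genes in both, all 8 double B-box genes included, and gave transcripts and upstream windows; the window of BBX22 is not reported here.

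The 8 genes, the gene lists and the alternatives were chosen with earlier results of these data known. Besides the 8 genes, those named are GI, HY5, HYH, COP1, CHS, PIF4, up to 3 called genes of each list with the smallest adjusted p, and the 2 most alike genes per member. SPA1, SPA2, CO, FT, SESA1, F3H, COL1, COL11, COL12 and BBX26 were named after their values were seen, and AT1G06045, AT2G31390, AT4G10230 and HSP22.0 for their position beside or over a member. The exact permutation test allows no p under 0.1.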

Additional observations from a re-analysis of the deposited data

How the results depend on the processing

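Over 14 alternatives the number of double B-box genes called was 6, except without gi-2 replicate 1, Col-0 replicate 2 or Col-0 replicate 3, where it was 5 (range 5 to 6 with 1 library left out). The calls and directions of BBX18, BBX19, BBX21, BBX24 and BBX25 held in all 14. BBX20 held in 11, with a log2 fold change of 0.69 to 1.52. BBX22, never called, ranged from -0.017 to 0.23 with 1 library left out, turning negative (-0.017) without gi-2 replicate 2. It was also negative (-0.056) with that library and Col-0 replicate 1 both left out, an alternative chosen after seeing the data; the cause was not tested. Called genes over the whole table were 6413, 4910 to 6687 with 1 library left out and 6083 to 6535 under the others. Scaling by library totals moved the median log2 fold change of all genes to 0.027 and kept all 6 calls.

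Same-numbered libraries of the genotypes had correlated deviations of 0.0164, 0.021 and 0.0263, so the numbers are not taken as pairs, although each library correlated best with its own number. With the replicate block, 6 double B-box genes and 6161 genes in all were called. The pair ratios kept their direction with 1 library left out, at 0.85 to 1.03 for BBX24 to BBX25, -0.94 to -0.58 for BBX18 to BBX19 and 0.34 to 0.88 for BBX20 to BBX21. BBX20 had the fewest counts of the tested members, and its libraries also differed within each genotype, so how much each limits the call was not tested. BBX23 had 0 counts, and whether depth or the counting set this was not tested.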
